A study of Mus musculus with 16 samples.

Results

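Potassium channel genes were defined as all genes whose symbol begins with Kcn among probe sets of the exon array that carry exactly 1 gene symbol. The definition used no measured value. It gave 88 genes of 21634 named genes, with 1087 probe sets of 625534 on the array table. All 88 symbols are current in RefSeq. Kcnq1ot1, a long noncoding RNA, and Kcnrg, a regulator named for its similarity to channel assembly domains, are not channel subunits, and the other members are pore or auxiliary subunits.

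Total RNA from the whole brain or the spinal cord of CD1 mouse embryos at E18.5 was hybridised to exon arrays, which carry separate probe sets for the exons of each gene. The 16 arrays formed 4 groups of 4, wild type and Nova1/2 double knockout (dKO) brain and the same genotypes of spinal cord, with 1 array for each biological replicate. Neither the alleles nor the cell types in which they act are named by the labels. The comparisons ask what loss of both Nova proteins, neuronal RNA-binding regulators of splicing, does to channel transcripts in each tissue and how the tissues differ.

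Potassium channels let potassium leave or enter the cell along its gradient and so set the resting potential, the shape of the action potential and the firing rate. Most voltage-gated Kv channels are tetramers of pore subunits of 1 subfamily, while silent Kv subunits modify Kv2 channels. Their surface number, gating and position are set by auxiliary subunits such as Kvbeta and KChIP proteins. Calcium- and sodium-activated channels follow spikes with an outward current, inward rectifiers hold the resting potential and respond to G proteins or buffer potassium in glia, and K2P channels carry the background leak.

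Values were log2(intensity + 16), and a gene level was the median over the gene's probe sets above a floor of 6.73, the median signal of all probe sets. Of the 88 members, 69 had at least 3 such probe sets and were tested among 14570 genes. The 19 others had no gene level and were not tested: Kcna7, Kcna10, Kcne1, Kcne3, Kcne4, Kcng2, Kcng4, Kcnj1, Kcnj2, Kcnj4, Kcnj11, Kcnj14, Kcnj15, Kcnk5, Kcnk15, Kcnmb1, Kcnmb3, Kcns2 and Kcnv2. A feature was called at a Benjamini-Hochberg adjusted p under 0.05 from limma over all features, and 2 groups are said to be separated when no array of one overlaps the other. Levels of different genes are not compared, since probe sets differ in brightness.

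The targeted genes followed the labels: Nova1 differed by -5.03 in brain and -5.31 in spinal cord, and Nova2 by -0.75 and -1.14, with every double knockout array below every wild type array. Pan-neuronal markers lay between 11.04 and 11.5 in mean log2 level on all arrays, Hox genes were higher in cord in 11 of 12 cases, and telencephalon markers were high in brain except on brain arrays numbered 3, at 7.53 in wild type and 8.4 in double knockout against 9.67 to 9.9 on the other brain arrays. Skeletal muscle genes ranged from 7.35 to 9.86 in cord against 6.95 to 7.15 in brain, and exceeded 8 on wild type cord arrays 1 and 4 and double knockout cord arrays 2 and 4. By Xist and Y-linked probe sets, all 4 double knockout brains were female, and 2, 2 and 3 of 4 were female in wild type brain, wild type cord and double knockout cord. Median intensity per array was 72.33 to 82.88 in brain and 99.45 to 116.2 in cord. In whole tissue, fewer cells of a type and less RNA per cell cannot be told apart.

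In spinal cord, most of the potassium channel genes that changed between wild type and double knockout were lower in the double knockout. Of 69 members, 12 fell and 1 rose, where 4.55% of all genes fell and 1.08% rose (5.63% were called in all). The 12 that fell were the Kv1 genes Kcna1, Kcna2 and Kcna6, the Kv2 gene Kcnb2, the Kv3 genes Kcnc1 and Kcnc4, the Kv4 gene Kcnd2, the auxiliary genes Kcnip1, Kcnip3 and Kcnab2, the glial inward rectifier Kcnj10 and the leak channel Kcnk1. Kcnh7, a pore subunit of the ERG family, rose. The median change over members was -0.12 against -0.03 over all genes, and 53 of 69 members lay below 0 where 56% of all genes did.

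**Figure D1:**
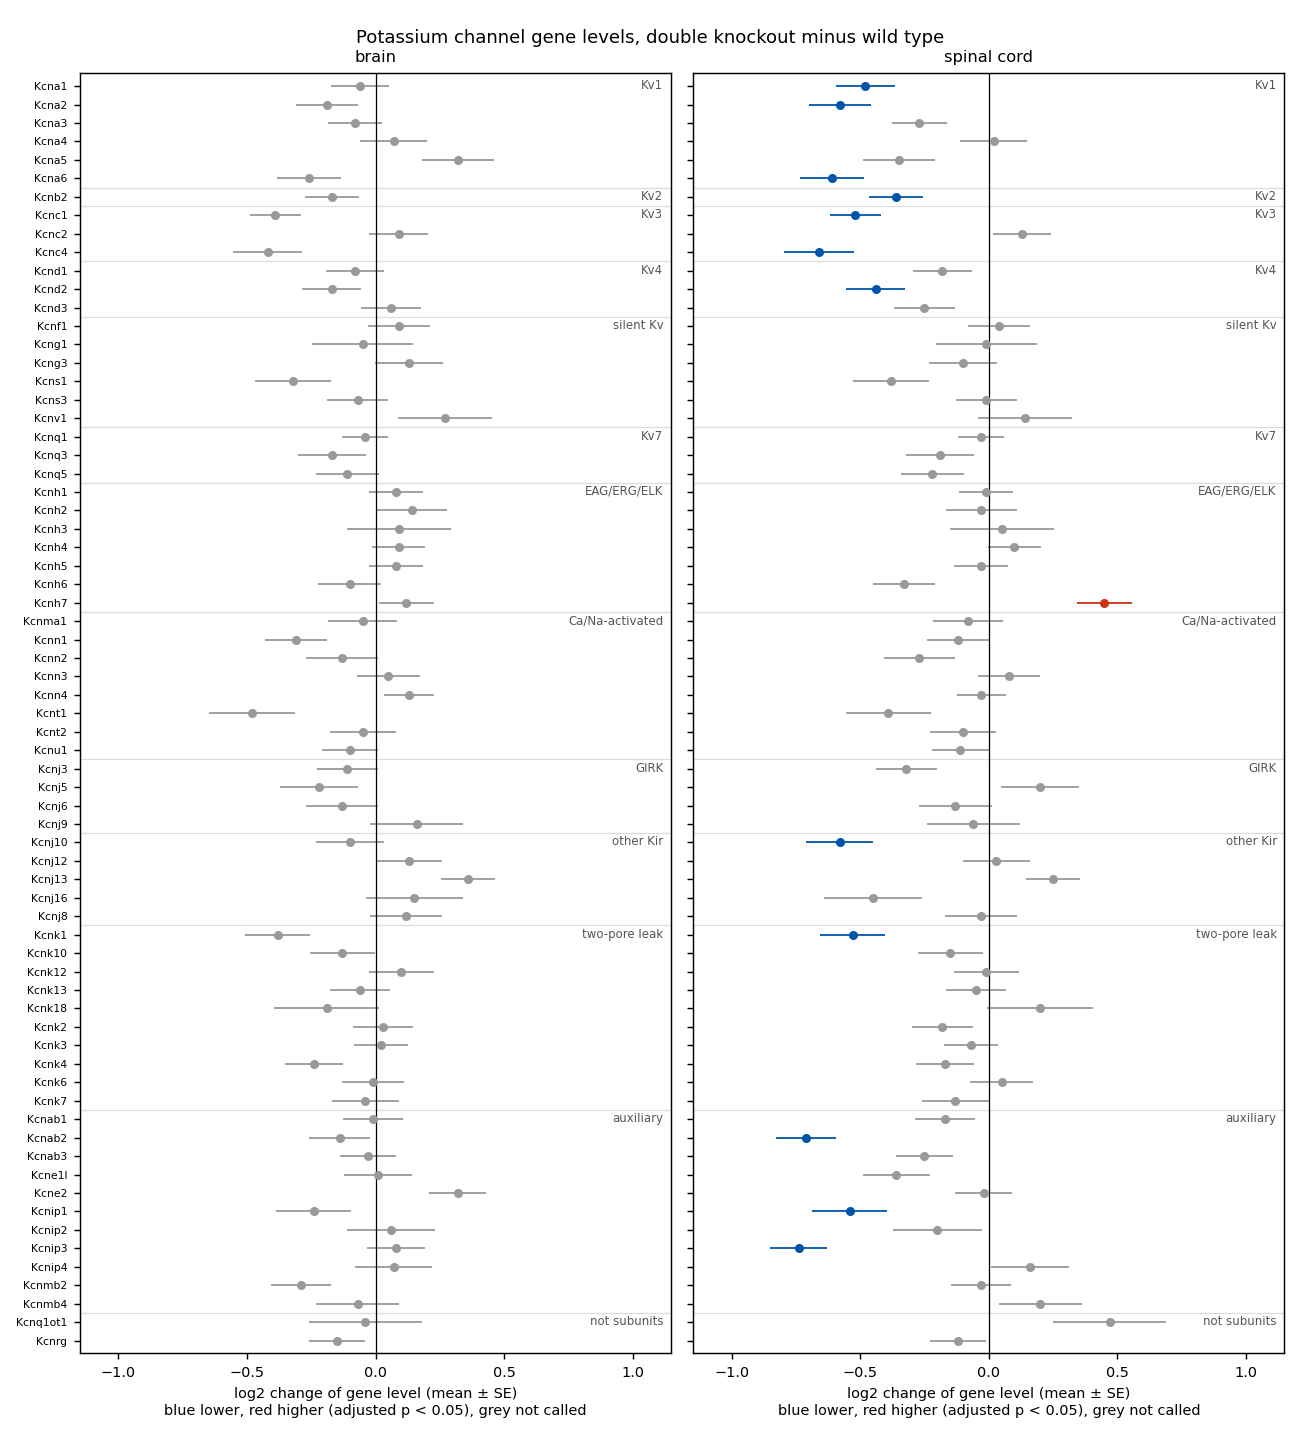
Change in gene level from wild type to double knockout, in log2 units, for the 69 tested members in brain (left) and spinal cord (right), grouped by role. Points are means with limma's SE, and coloured points were called. No member is coloured in brain, while 12 members are coloured as lower and Kcnh7 as higher in cord.

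Among the Kv1 genes, whose channels cluster beside the nodes of Ranvier and at axon initial segments, 3 of 6 tested members fell in cord and none rose. Kcna6 was 9.44, 9.05, 9.14 and 8.86 on the wild type cord arrays and 8.76, 8.43, 8.36 and 8.51 on the double knockout arrays. Every knockout array lay below every wild type array, a change of -0.61 (SE 0.125, limma adjusted p 0.00643). All 10 of its probe sets above the floor were lower and 9 were separated.

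Kcna2 was 9.15, 8.84, 8.9 and 8.81 in wild type cord and 8.45, 8.17, 8.33 and 8.43 in double knockout cord. The groups were separated, with a change of -0.58 (SE 0.12, limma adjusted p 0.00642), and all 6 probe sets were lower. Kcna1 was 8.53, 8.45, 8.04 and 8.13 in wild type and 7.81, 7.77, 7.77 and 7.86 in double knockout cord, again separated. Its change was -0.48 (SE 0.114, limma adjusted p 0.0154). Of its 9 probe sets above the floor, 7 were lower and 2 higher, and only 2 were separated. The call for Kcna1 ended when wild type cord array 1 or 2 or knockout cord array 2 or 3 was left out, and with no floor the change was -0.21 (limma adjusted p 0.516). The 3 other tested Kv1 members changed by -0.35 to 0.02 in cord and were not called.

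Kv3 channels open at depolarised voltages and close quickly, which lets neurons fire at high rates. Kcnc4 was 9.82, 9.78, 9.69 and 9.36 in wild type cord and 9.07, 9.01, 9.08 and 8.84 in double knockout cord. The change was -0.66 (SE 0.135, limma adjusted p 0.00607), and all 8 of its probe sets were separated. The related Kcnc1 was 8.6, 8.43, 8.51 and 8.29 in wild type and 7.96, 7.9, 8.11 and 7.77 in double knockout cord. The groups were again separated, by -0.52 (SE 0.0993, limma adjusted p 0.00367), and 23 of 23 probe sets were lower, 14 of them separated. Kcnc2, the third Kv3 gene tested, changed by 0.13 and was not called.

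Kv4 channels carry the transient A-type current of dendrites, and KChIP proteins, encoded by the Kcnip genes, bind them and set their surface number. Kcnd2 was 10.38, 10.14, 10.38 and 10.06 in wild type cord and 9.87, 9.87, 9.8 and 9.69 in double knockout cord. The groups were separated with a change of -0.44 (SE 0.115, limma adjusted p 0.0296). Of its 11 probe sets above the floor, 10 were lower and 1 higher, and 5 were separated. The call ended without wild type cord array 1 or 3 or knockout cord array 2, 3 or 4. It also ended with no floor (-0.44, limma adjusted p 0.0503) and with the mean over probe sets (-0.27, limma adjusted p 0.0581). Kcnd1 and Kcnd3 changed by -0.18 and -0.25 and were not called.

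The auxiliary genes gave the greatest gene-level change among the tested members in cord. Kcnip3, which encodes KChIP3, also known as the calcium-binding repressor DREAM, was 8.59, 8.39, 8.1 and 8.16 on wild type and 7.74, 7.58, 7.53 and 7.44 on double knockout arrays. No arrays overlapped, all 11 probe sets were lower, and the change was -0.74 (SE 0.112, limma adjusted p 0.000494). Kcnab2, a Kvbeta subunit that binds Kv1 channels, was 9.47, 9.25, 9.27 and 8.96 in wild type and 8.81, 8.39, 8.43 and 8.48 in double knockout cord. It fell by 0.71 (SE 0.117, limma adjusted p 0.00112), with 17 of 17 probe sets lower.

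Kcnip1 was 10.03, 9.51, 9.46 and 9.46 in wild type and 9.53, 8.93, 8.99 and 8.84 in double knockout cord, so that knockout array 1 overlapped the wild type range. Its change was -0.54 (SE 0.146, limma adjusted p 0.0351). Of its 15 probe sets above the floor, 14 were lower and 1 higher, and 6 were separated. The call ended without wild type cord array 1 or knockout cord array 2, 3 or 4. It also ended with no floor (-0.41), with the floor at the 75th percentile (-0.37) and with the cord arrays fitted alone (-0.54). The 8 other tested auxiliary members changed by -0.36 to 0.2 and were not called.

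The other members called in cord lay in 4 further roles. Kcnj10 encodes Kir4.1, the potassium-buffering channel of astrocytes and oligodendrocytes. It was 8.67, 8.62, 8.69 and 8.52 in wild type and 8.22, 7.94, 8.01 and 8 in double knockout cord, a change of -0.58 (SE 0.131, limma adjusted p 0.0121) with separated groups. Astrocyte markers moved with it: 6 of 10 fell, none rose, and their mean log2 level was 10.13 to 10.57 in wild type and 9.79 to 10.07 in double knockout cord, with no marker below the floor in either group. Oligodendrocyte lineage markers fell in 3 of 9 cases and microglial markers in 4 of 9, while 1 of 11 pan-neuronal markers rose and none fell. Their part in the channel results was not tested.

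Kcnk1, the TWIK leak channel, was 9.46, 9.41, 9.72 and 9.27 in wild type and 9.02, 8.96, 8.83 and 8.92 in double knockout cord. The change was -0.53 (SE 0.126, limma adjusted p 0.0159), lost without wild type cord array 3 or knockout cord array 3. Kcnb2, a delayed rectifier of the Kv2 subfamily, was 8.93, 8.54, 8.55 and 8.54 in wild type and 8.29, 8.1, 8.3 and 8.43 in double knockout cord. Its change of -0.36 was just past the threshold (SE 0.105, limma adjusted p 0.0485), and leaving out any cord array except wild type 4 ended the call. It was also lost with no floor, with the higher floor, with the mean over probe sets (-0.23, limma adjusted p 0.13), with the cord arrays alone, with sex as a term and with a replicate block. The genotypes were separated for Kcnk1 and for Kcnb2. Of the probe sets above the floor, all 5 of Kcnk1 were lower, 2 of them separated. Of the 7 of Kcnb2, 6 were lower and 1 higher, and 2 were separated.

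Kcnh7 encodes a slowly deactivating channel of the ERG family. On wild type cord arrays it was 8.05, 7.67, 7.76 and 7.97, and on double knockout arrays 8.22, 8.19, 8.36 and 8.49. The rise was 0.45 (SE 0.106, limma adjusted p 0.0151), with separated groups and 24 of 24 probe sets higher. Leaving out wild type cord array 2 or 3 or knockout cord array 3 or 4 ended the call, as did no floor (0.39, limma adjusted p 0.0633). The 6 other tested members of its role changed by -0.33 to 0.1 and were not called.

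**Figure D2:**
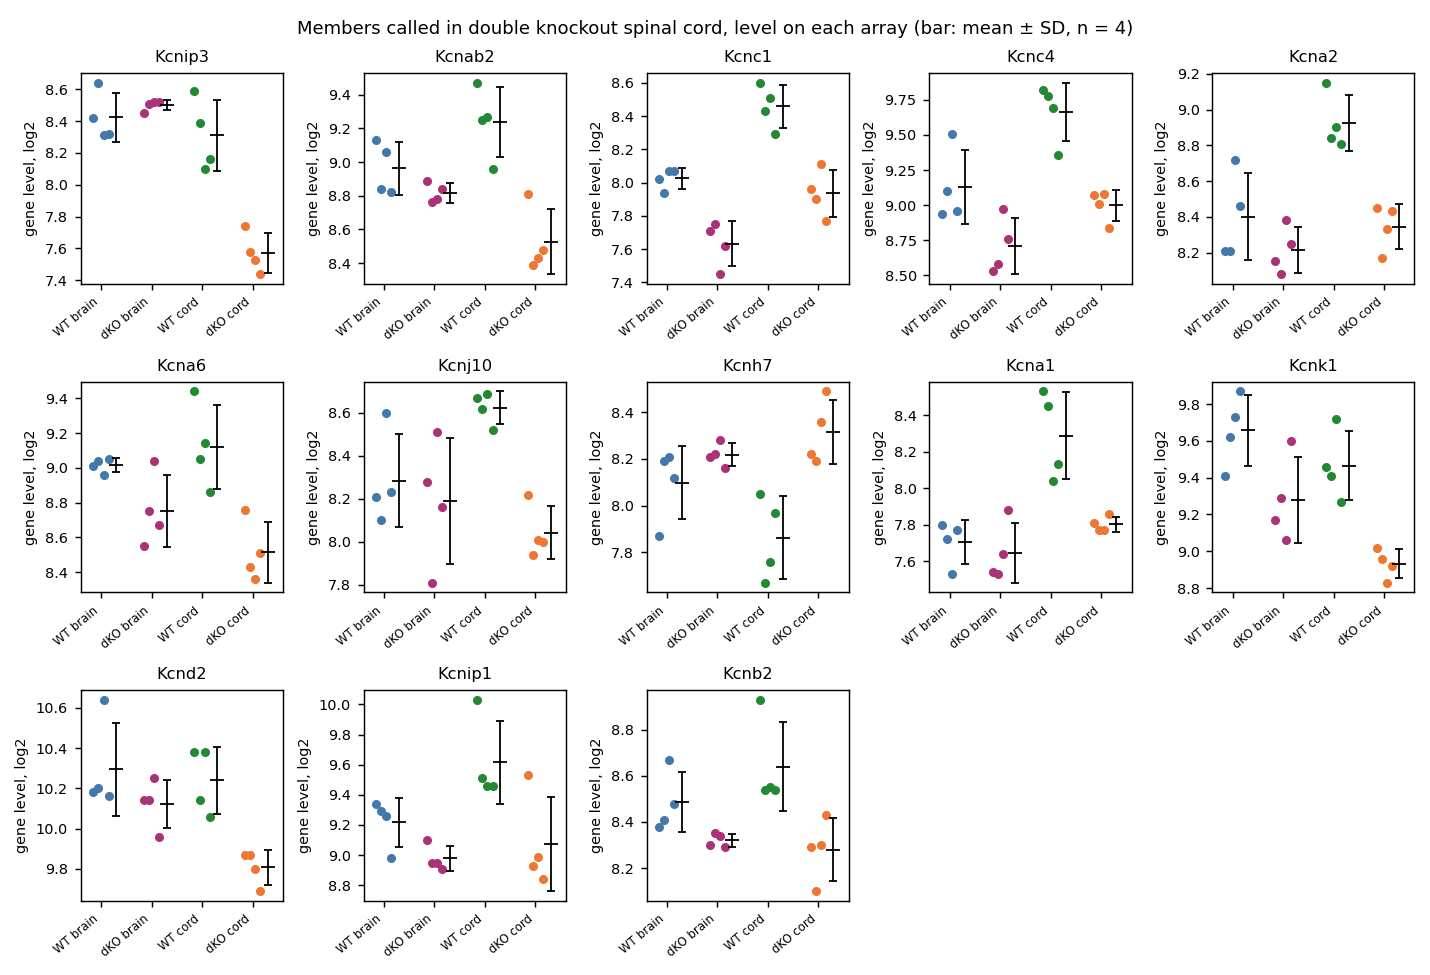
Gene level in log2 units on each of the 16 arrays for the 13 members called in spinal cord, by group, with the mean and SD of 4 arrays as a black bar. Knockout cord arrays lie below wild type cord arrays for all but Kcnh7, where they lie above, and Kcnip1, where they overlap.

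No member of the silent Kv, Kv7, GIRK or calcium- and sodium-activated roles was called in cord. Kcnq3, a subunit of the M-current, changed by -0.19, and the GIRK genes Kcnj3 and Kcnj6 by -0.32 and -0.13. The BK channel gene Kcnma1 changed by -0.08, the SK channel gene Kcnn2 by -0.27 and the mechanosensitive leak channel gene Kcnk2 by -0.18, with limma adjusted p from 0.124 to 0.82 over these 6 genes. Kcnn2 was called with the floor at the 75th percentile (-0.53, limma adjusted p 0.0076) and with the mean over probe sets (-0.39, limma adjusted p 0.023). Separated groups without a call were seen in cord for Kcnj16, Kcnt1 and Kcnq5 (-0.45, -0.39 and -0.22), which were singled out after their values were seen. In all, 15 of 69 members were separated in cord against 11.5% of all genes.

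Without the 4 arrays rich in muscle transcripts, no member was called by limma, where calls over all 14570 genes fell from 820 to 100. All 13 members kept their direction, and their limma adjusted p ran from 0.0687 to 0.641. The changes of Kcnip3, Kcnab2 and Kcnc4 were then -0.61, -0.65 and -0.66, and that of Kcnh7 was 0.57. Kcnip1 shrank by more than 1.5 times, from -0.54 to -0.22. Leaving out double knockout cord array 3 alone left 7 members called, and 425 of all genes. Kcnip3, Kcnab2, Kcnc1, Kcnc4, Kcna2, Kcna6 and Kcnj10 kept the call under all alternatives run except the removal of the 4 muscle-rich arrays.

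The start-proximal sequences of 3 members are shown because Kcnc1 and Kcna2 fell and Kcnh7 rose in cord. They are the 250 bases before the start in the RefSeq table (GRCm38.p6), on the gene's strand, for chr7:46396218-46396467 (+), chr3:107101317-107101566 (+) and chr2:63184288-63184537 (-). Capitals mark the GC box GGGCGG or the TATA box TATAAA on either strand.
Kcnc1: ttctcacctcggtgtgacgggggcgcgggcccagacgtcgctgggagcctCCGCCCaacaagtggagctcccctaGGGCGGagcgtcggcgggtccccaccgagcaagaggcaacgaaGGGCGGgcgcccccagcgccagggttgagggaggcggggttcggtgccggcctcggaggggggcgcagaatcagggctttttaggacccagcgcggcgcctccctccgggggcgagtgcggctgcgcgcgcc
Kcna2: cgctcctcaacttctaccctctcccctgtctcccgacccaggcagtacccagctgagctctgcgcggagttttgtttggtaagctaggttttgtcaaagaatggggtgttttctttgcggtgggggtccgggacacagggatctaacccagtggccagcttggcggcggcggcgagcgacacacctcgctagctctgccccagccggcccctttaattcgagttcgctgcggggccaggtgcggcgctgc
Kcnh7: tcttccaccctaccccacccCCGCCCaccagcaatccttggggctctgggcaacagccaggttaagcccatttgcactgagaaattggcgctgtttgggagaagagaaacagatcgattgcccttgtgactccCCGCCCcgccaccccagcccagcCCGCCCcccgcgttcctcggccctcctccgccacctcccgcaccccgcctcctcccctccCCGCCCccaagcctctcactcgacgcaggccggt

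The Kcnc1 and Kcnh7 windows hold GC boxes and the Kcna2 window holds none, and none of the 3 holds a TATA box. Of 68 members with an entry, 33 (48.5%) held a GC box in this window and 2 (2.94%) a TATA box, against 32.9% and 13% of 27025 genes of the table. Median G+C content was 58.8% for members and 52% for all genes. Among 10 members with an entry that fell in cord, 5 held a GC box and 0 a TATA box, and among 44 tested members that were not called, 23 (52.3%) and 2 did. A match of letters is a description and not a site of binding.

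In brain, no member was called by limma, where 0.268% of all genes were called. At an unadjusted p under 0.05 there were 11 members, against 5.33% of all genes. The smallest p belonged to Kcnc1, which was 8.02, 7.94, 8.07 and 8.07 on wild type and 7.71, 7.75, 7.45 and 7.62 on double knockout arrays. The groups were separated, at -0.39 (SE 0.0993, limma adjusted p 0.142).

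Kcnj13, an inward rectifier of epithelia, followed. It was 7.56, 7.57, 7.44 and 7.46 in wild type and 7.89, 8, 7.96 and 7.65 in double knockout brain, separated and higher by 0.36 (SE 0.106, limma adjusted p 0.301). Kcnc4 changed by -0.42 (SE 0.135, limma adjusted p 0.462), with overlapping arrays. Kcnn1 and Kcnb2 were also separated, both lower, which gives 4 of 69 members separated in brain against 4% of all genes.

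Members called in cord had brain changes from -0.42 to 0.12. Kcna1 changed by -0.06, Kcna2 by -0.19, Kcnab2 by -0.14, Kcnd2 by -0.17, Kcnip1 by -0.24 and Kcnj10 by -0.1 in brain. Among the others described in cord, Kcnq3, Kcnj3, Kcnj6, Kcnma1, Kcnn2 and Kcnk2 changed by -0.17 to 0.03. None of these was called, and the median over all 69 was -0.05 against 0.02 for all genes.

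Whether the cord change differed from the brain change was tested directly. No member was called by limma, and 0% of all genes were, while 9 members and 1166 genes (8%) had an unadjusted p under 0.05. The smallest p was that of Kcnip3, at 8.42, 8.64, 8.31 and 8.32 in wild type brain and 8.45, 8.51, 8.52 and 8.52 in double knockout brain, where the arrays overlapped. Against its fall in cord, the difference of changes was -0.81 (SE 0.158, limma adjusted p 0.0881). With replicate numbers as a block the limma adjusted p was 0.0499, and over all alternatives it ran from 0.0133 to 0.508. Kcnab2 (-0.57) and Kcna5 (-0.67) followed, each with a limma adjusted p of 0.323.

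The exon index, the log2 level of a probe set relative to its gene's level within 1 array, asks whether 1 part of a transcript changed differently from the rest. It was tested for 655 probe sets of 52 members, genes for which 5 or more probe sets passed the floor, among 193126 probe sets. In cord, 4 member probe sets were called, where 0.388% of all were: they lay in Kcnc1, Kcna4, Kcnma1 and Kcna1. The positions of the probe sets in their genes are not used here, since no annotation of the array's build was at hand.

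In Kcnc1, the index of probe set 5379961 was -0.23, 0, -0.47 and -0.48 in wild type cord and -1.38, -1.42, -1.71 and -1.45 in double knockout cord. The groups were separated by -1.19 (SE 0.145, limma adjusted p 0.000901), beyond the fall of the gene itself. Its level was 7.81 to 8.43 in wild type cord and 6.33 to 6.58, below the floor, in double knockout cord, so the change in index is limited by the dim end of the scale. In brain its index changed by -0.38 (limma adjusted p 1), from levels already near the floor in wild type.

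In Kcnma1, the BK channel, which joins voltage and calcium sensing in 1 pore subunit, probe set 4972911 moved upward in both tissues. Its index was -0.65, -0.62, -0.78 and -0.06 in wild type cord and 0.14, 0.52, 0.51 and 0.4 in double knockout cord, a change of 0.92 (SE 0.175, limma adjusted p 0.031). Leaving out any of 3 wild type or 3 double knockout cord arrays (all but wild type 4 and knockout 1) ended the call. In brain it was -0.89, -0.31, -0.09 and -0.73 in wild type and 0, 0.15, 0.21 and -0.07 in double knockout, separated but not called (0.58, limma adjusted p 0.781). The gene level of Kcnma1 differed by -0.05 in brain and -0.08 in cord.

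In Kcna4, a Kv1 gene of the A-type current whose gene level changed by 0.02 in cord, probe set 4892990 had an index of -0.07, 0, 0.22 and 0 in wild type cord and -0.4, -0.73, -0.53 and -0.54 in double knockout cord. The change was -0.59 (SE 0.109, limma adjusted p 0.0276), and 0.02 in brain. The call ended without wild type cord array 3 or knockout cord array 2, 3 or 4, and also when the probe set was left out of its own gene level, with no floor, with the mean over probe sets, with the cord arrays alone and with a replicate block.

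In Kcna1, probe set 5240483 had an index of -0.91, -0.83, -1.12 and -0.63 in wild type cord and 0, -0.36, 0 and 0 in double knockout cord, a change of 0.78 (SE 0.12, limma adjusted p 0.00737). An index of 0 means that the probe set was itself the median of the gene on that array. Its own level was 6.92 to 7.62 in wild type and 7.41 to 7.86 in double knockout cord, with overlapping arrays, while the gene level fell. With no floor and with the cord arrays alone the calls for the Kcna1 and Kcnma1 probe sets were also lost. None of the 4 calls held without the 4 arrays rich in muscle transcripts. There limma called no member probe set and 111 of all 193126, against 750 of all with every array. The 4 changes then kept their direction.

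**Figure D3:**
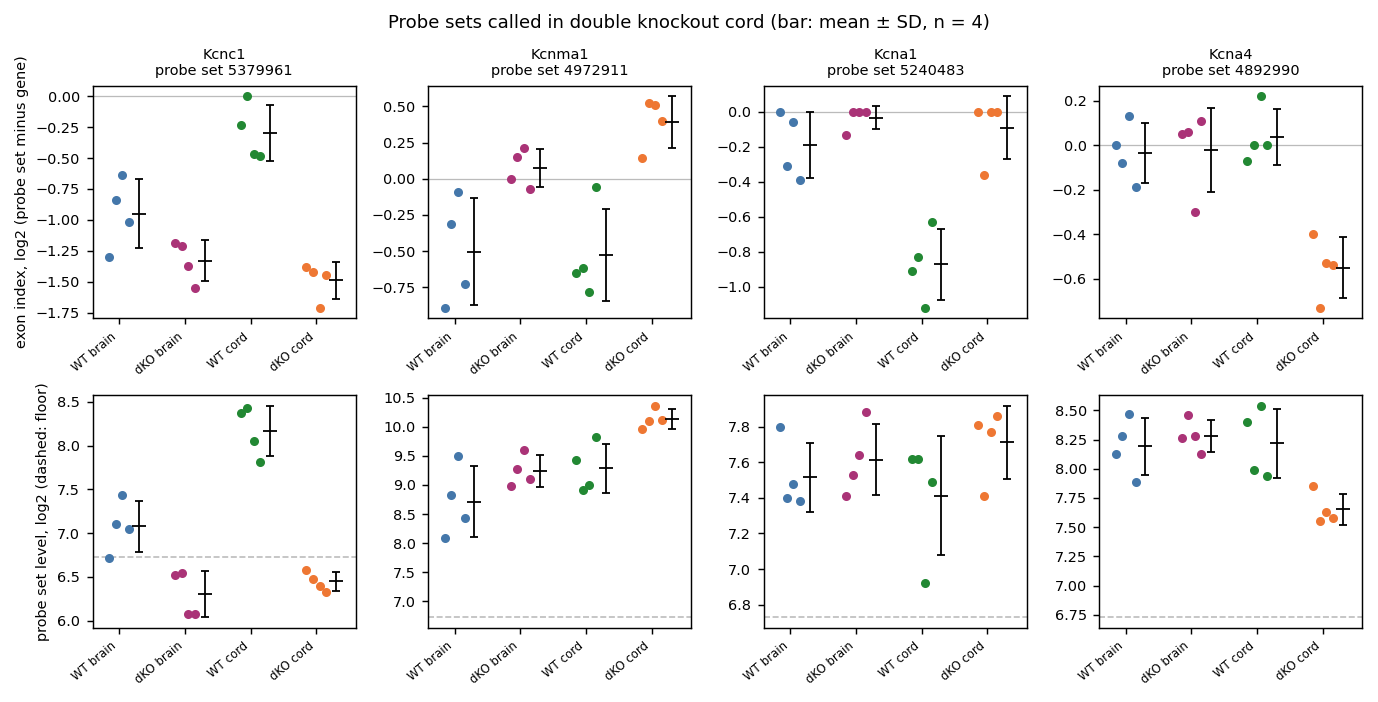
Exon index (top) and level (bottom) in log2 units on each array for the 4 probe sets called in double knockout cord, with the mean and SD of 4 arrays and the floor of 6.73 as a dashed line. The Kcnc1 probe set lies below the floor on all double knockout arrays, and the Kcnma1 probe set has a higher index in the double knockout of both tissues.

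In brain no member probe set was called by limma, against 0.15% of all, while 51 of 655 had an unadjusted p under 0.05 against 3.3% of all. The smallest p was in Kcnt1, a sodium-activated channel, where the index of probe set 4448246 was -1.42, -1.25, -1.3 and -1.1 in wild type and -0.9, -0.75, -0.83 and -0.78 in double knockout brain. The groups were separated by 0.45 (SE 0.101, limma adjusted p 0.166), at levels of 6.27 to 7.07, near the floor. In cord the same index changed by -0.02.

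Kcnab1, a Kvbeta gene with several start exons, came next with probe set 5344379. The index was -0.07, -0.03, -0.41 and -0.05 in wild type and -0.42, -0.54, -0.82 and -0.69 in double knockout brain, a change of -0.48 (limma adjusted p 0.252), and it changed by 0.21 in cord. Probe set 4679317 of Kcnh7 changed by -0.46 in brain (limma adjusted p 0.394) and -0.05 in cord. The tests of the difference between the tissues' changes called no member probe set in limma, against 0.000518% of all, with 54 members' probe sets at an unadjusted p under 0.05 against 5.67% of all. Kcnab1 probe set 5344379 (0.69), Kcnn1 probe set 4771264 (-0.61) and Kcnc1 probe set 5379961 (-0.81) had the smallest p, with limma adjusted p from 0.641 to 0.651.

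The exon index was separated between genotypes for 54 of 655 member probe sets in cord (5.69% of all probe sets) and 27 in brain (2.63% of all). In both tissues and in the same direction this held for 5 of the 655, which is 5 of 54 and 5 of 27, and in opposite directions for 0. Over all 193126 probe sets, 719 (0.372%) were separated in the same direction in both tissues and 65 in opposite directions. Those 719 were among 10993 separated in cord and 5077 separated in brain. The 5, named after their values were seen, were in Kcnma1 (4972911, above), Kcnc1 (4776229, 0.42 in cord and 0.31 in brain), Kcnc4 (5033692, 0.41 and 0.32), Kcnh7 (4993836, -0.29 and -0.27) and Kcnk4 (5412955, -0.58 and -0.4). Brain and cord comparisons share no array. Apart from the Kcnma1 probe set in cord, none of the 5 was called in either tissue.

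Wild type cord and brain differed in many members. Of 69, 27 were higher and 11 lower in cord, where 20.6% of all genes were higher and 39.8% lower (60.4% were called in all). The median difference of members was 0.2 against -0.16 for all genes. After quantile normalization 18 were higher and 13 lower, so the share of calls that were higher was 58.1% in place of 71.1%. Over all called genes that share fell too, to 24.3% in place of 34.1%. By role, 6 of 10 K2P leak channels were higher and 2 lower, as were 4 of 8 calcium- and sodium-activated subunits higher and none lower, 3 of 3 tested Kv3 genes higher, and 1 of 6 silent Kv subunits higher and 3 lower.

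Kcnt1, the sodium-activated Slack channel, had the greatest difference among higher members. It was 7.83, 7.78, 8.31 and 8.03 in wild type brain and 9.37, 9, 9.43 and 8.9 in wild type cord, higher by 1.19 (SE 0.167, limma adjusted p 1.72e-05) with separated groups. In the double knockout arrays, which share none with this comparison, the difference was 1.27.

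Kcnj16, a rectifier that pairs with Kir4.1 in glia, was 7.2, 7.56, 7.44 and 6.99 in brain and 8.69, 8.4, 8.04 and 8.26 in cord. The difference was 1.05 (SE 0.189, limma adjusted p 0.000155), and 0.45 in the double knockout. Astrocyte markers were higher in wild type cord in 5 of 10 cases and lower in none, and their part in this difference was not tested. Kcns3, a silent Kv9.3 subunit that modifies Kv2 channels, was 8.2, 7.87, 8.5 and 7.99 in brain and 9, 9.17, 9.27 and 9.1 in cord. Its difference was 1 (SE 0.119, limma adjusted p 3.88e-06), and 1.05 in the double knockout.

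Kcnh5, an ether-a-go-go channel, was 7.38 to 7.69 in brain and 8.26 to 8.41 in cord, higher by 0.86. The others of the 10 most significant higher members were Kcnk13 (0.69), Kcnma1 (0.6), Kcna1 (0.58), Kcnk3 (0.56), Kcnh1 (0.54) and Kcna2 (0.53), with limma adjusted p from 8.29e-05 to 0.0011. All were separated but Kcnma1. Of the members described in the knockout, Kcnc1 was higher by 0.43, Kcnip1 by 0.4, Kcnn2 by 0.36, Kcnj10 by 0.34 and Kcnab2 by 0.28. Kcnj6 (0.23), Kcnq3 (0.17) and Kcnd2 (-0.06) were not called. Without the muscle-rich arrays the calls for Kcnip1 (0.27), Kcnn2 (0.22), Kcnj10 (0.37) and Kcnab2 (0.3) ended, with limma adjusted p from 0.0616 to 0.232, and leaving out single wild type arrays ended them too.

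The most significant of the 11 members lower in cord was Kcnj13, known in the choroid plexus. It was 7.56, 7.57, 7.44 and 7.46 in brain and 6.25, 6.55, 6.26 and 6.55 in cord, where it was below the floor, a difference of -1.11 (SE 0.106, limma adjusted p 3.76e-07). Kcne2, an auxiliary subunit of that epithelium, was 8.11 to 8.5 in brain and 7.7 to 8 in cord, lower by 0.55. Choroid plexus markers were lower in cord in 6 of 7 cases, at 9.05 to 9.11 in mean log2 level in wild type brain and 7.06 to 7.21 in cord, with 2 of 7 below the floor in cord. Their part in both differences was not tested.

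Kcnv1, a silent subunit, was 8.21, 8.6, 7.36 and 8.44 in brain and 7.22, 6.94, 6.99 and 6.89 in cord, lower by 1.14 (SE 0.182, limma adjusted p 5.33e-05). Its low brain value was on wild type array 3, the array with few telencephalon transcripts, and it was lower in cord in the double knockout too (-1.27). Kcnf1, also a silent subunit, was lower by 0.58, with wild type brain array 3 again lowest at 7.64. With no floor Kcnf1 differed by -0.21 (limma adjusted p 0.267) and was not called. Telencephalon markers fell from brain to cord in 9 of 9 cases, and their part was not tested.

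Kcnk10, a TREK-type leak channel, was 9.43 to 9.88 in brain and 8.64 to 9.24 in cord, lower by 0.68. The remaining lower members of the 10 named were Kcnk2 (-0.45), Kcnj8 (-0.38), Kcnj3 (-0.31), Kcnrg (-0.29) and Kcna3 (-0.27), with limma adjusted p from 0.00286 to 0.0361. Of these 5, all but Kcnk2 lost the call when some single arrays were left out, and Kcna3 and Kcnrg also with no floor.

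The tissue difference was repeated in the 8 double knockout arrays. There 36 members were called, 20 higher and 16 lower, of which 26 were called in the same direction as in wild type (26 of 38 and 26 of 36). Of all 14570 genes 9676 were called there, 2708 higher and 6968 lower. Of the 8800 genes called in wild type, 7571 were called there in the same direction and 16 in the opposite one. Kcnab2 was called in opposite directions, 0.28 in wild type and -0.29 in double knockout. Kcna1 and Kcna2, higher in wild type cord by 0.58 and 0.53, were not called in the double knockout (0.16 and 0.13). These values contain the cord changes given above, and the test of the difference itself called no member.

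**Figure D4:**
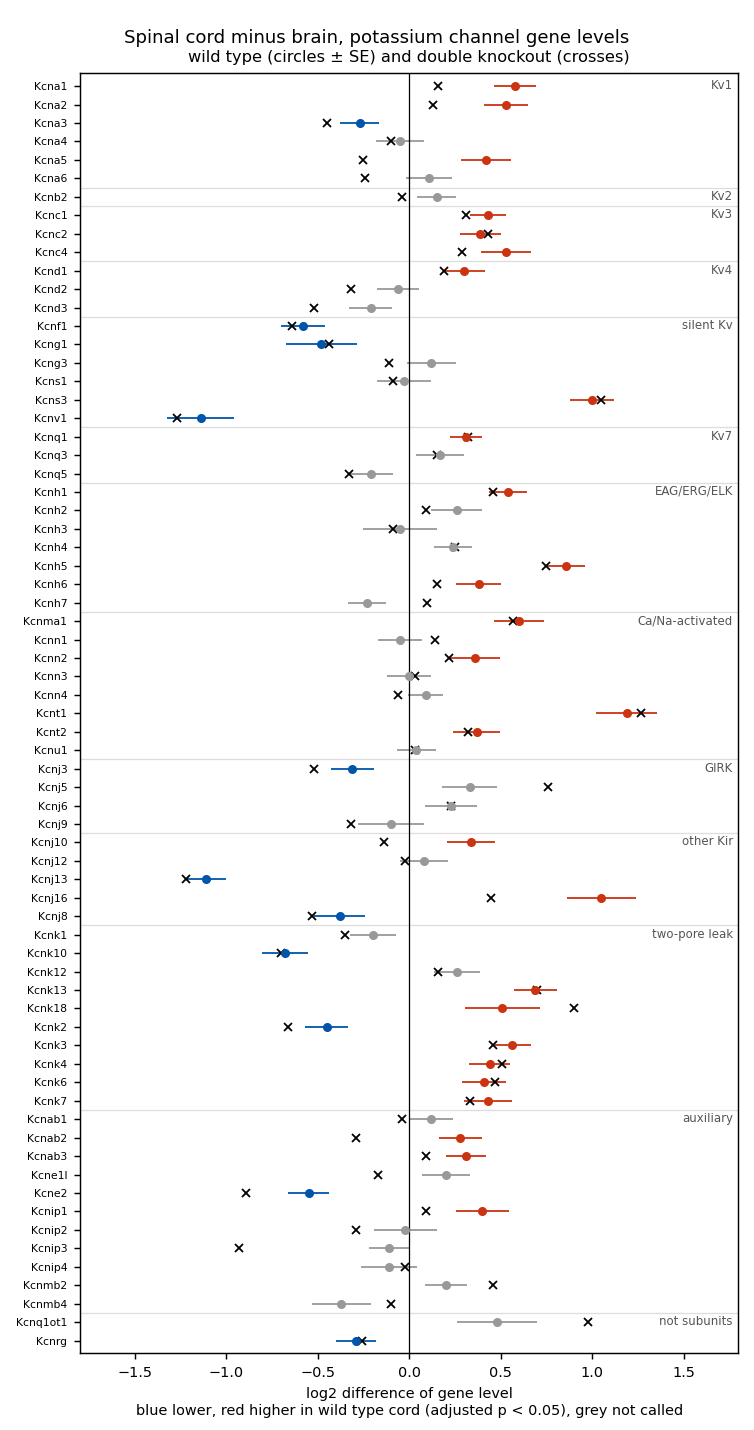
Spinal cord minus brain, in log2 units, for the 69 tested members by role. Circles are wild type means with limma's SE, coloured when called, and crosses are the double knockout difference. Kcns3, Kcnt1 and Kcnh5 lie to the right and Kcnj13 and Kcnv1 to the left in both genotypes, while Kcnip3 lies far lower in the double knockout.

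The exon index differed between wild type tissues for 111 of 655 member probe sets in 44 genes, 56 higher and 55 lower in cord, where 22% of all probe sets were called, 12.4% higher and 9.59% lower. Kcnh7 had 9 of 24, Kcnq5 8 of 25 and Kcnma1 7 of 33 called, the last all lower in cord. Kcnn1 encodes an SK channel of the spike afterhyperpolarisation. Its probe set 5069268 had an index of -2.5, -2.57, -2.05 and -2.56 in wild type brain and -0.61, -0.81, -0.78 and -0.11 in wild type cord, higher by 1.84 (SE 0.164, limma adjusted p 9.61e-06). Its level was 5.76 to 6.23 in brain, below the floor, and 7.34 to 8.07 in cord, so the difference in index is limited by the dim end of the scale and has no rank among the probe sets. In the double knockout arrays the difference was 2.43.

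A probe set near or below the floor in brain and clearly above it in cord recurred. In Kcnk10, probe set 4634248 had an index of -3.1, -3.52, -2.33 and -2.96 in brain and -1.34, -1.35, -0.87 and -1.42 in cord (1.73, limma adjusted p 0.000104), against a gene level that was lower in cord. In Kcnip4, a KChIP gene of many start sites, probe set 4961856 was -2.51, -2.25, -2.16 and -2.17 in brain and -0.8, -0.47, -0.37 and -0.62 in cord (1.71, limma adjusted p 2.09e-05). Both were separated, with levels in brain of 6.35 to 7.1 and of 5.95 to 6.77, so the same limit holds for them.

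The opposite was seen for Kcnh3 probe set 4465460, at 0, 0.6, -0.65 and 0.24 in brain and -1.37, -1.65, -1.55 and -1.24 in cord (-1.5, limma adjusted p 0.000266), with cord levels of 5.86 to 6.37, below the floor. Kcnq5 probe set 4731202 was higher in cord by 1.26 but overlapped, with wild type cord array 3 at 0.44 and the other cord arrays at 1.87 to 2.45. Kcnip3, Kcnh4, Kcnq3 and Kcnip1 had probe sets higher by 1.01, 0.99, 0.97 and 0.93. For Kcnh4 the wild type brain levels were 7.12, 6.38, 5.71 and 6.53, mostly below the floor, so the same limit holds for it. Those of Kcnip3 (6.72 to 7.36), Kcnq3 (6.24 to 7.34) and Kcnip1 (6.58 to 7.75) were near the floor. Only the lowest array of each was below it, so the limit holds there in part. A probe set of Kcnt1 was lower by 1.17 with overlapping arrays, at levels of 5.65 to 7.74 in wild type cord. Among the alternatives its call was lost in 10 of 19, that of Kcnip1 in 4 of 19 and that of Kcnh4 in 2 of 18. The Kcnip3 and Kcnq3 calls were kept in all. Without the 4 arrays rich in muscle transcripts 71 member probe sets were called, and 27048 of all 193126. In the double knockout arrays 144 member probe sets were called, and 50064 of all. Of the 111 called in wild type, 58 were called there in the same direction and 0 in the opposite one, and 106 kept their sign. These counts were not made over all probe sets, so whether they are particular to the members cannot be said.

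**Figure D5:**
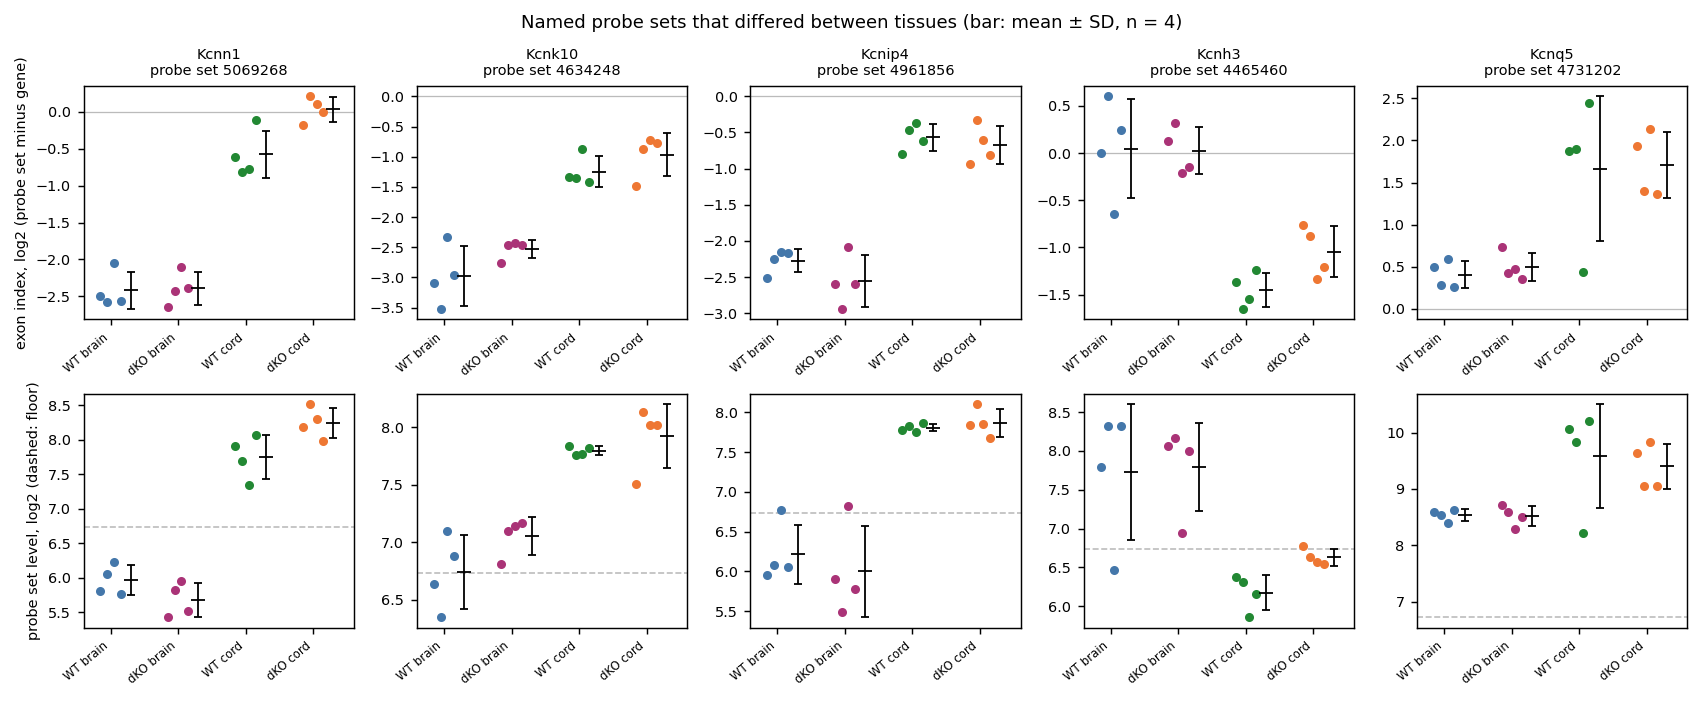
Exon index (top) and probe set level (bottom), in log2 units, on each array for 5 named probe sets that differed between tissues, with mean and SD of 4 arrays and the floor of 6.73 as a dashed line. For Kcnn1, Kcnk10 and Kcnip4 both cord groups lie above both brain groups.

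Genes whose products bind, cluster or modulate potassium channels, and the HCN channels, were 37 listed and 32 tested. In cord 7 of 32 fell and none rose, where 4.55% of all genes fell and 1.08% rose: Akap5 (-0.54), a kinase anchor; Epb4.1l3 (-0.59), a membrane skeleton protein; Hcn2 (-0.64), a pacemaker channel; Cntnap1 (-0.61), the paranodal protein Caspr; Rgs7 (-0.43); Calm3 (-0.32); and Dpp6 (-0.34), an auxiliary subunit of Kv4 named outside the naming rule. Their limma adjusted p ran from 0.00137 to 0.0413, and all but Hcn2 were separated. Without the muscle-rich arrays Akap5, Epb4.1l3, Hcn2, Cntnap1, Rgs7 and Calm3 were not called, with limma adjusted p from 0.103 to 0.329. Among 17 alternatives Rgs7 lost its call in 9 and Calm3 in 10, with a change of -0.05 for Calm3 by the mean over probe sets. Cntnap1 lost its call without wild type cord array 1 or knockout cord array 2 or 4, and no alternatives were run for Dpp6. In brain and in the difference of changes none was called by limma. Between wild type tissues 8 were higher and 10 lower in cord, where 20.6% of all genes were higher and 39.8% lower, with Cntnap1 higher by 1.34, Epb4.1l3 by 0.76, Lrrc26 by 0.7 and Hcn2 by 0.57, and Gng2 and Vapa lower by 0.86 and 0.49. The arrays overlapped for Lrrc26, and its call was lost with no floor (limma adjusted p 0.314). Hcn2 was not called between the double knockout tissues (limma adjusted p 0.156).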

How the data were processed

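The deposited table holds linear probe set intensity values; per the submitters' processing notes the authors used Affymetrix Power Tools and PLIER with mm8, settings and versions not given. Trizol extraction and sense target labelling came before, per the labels' protocols. Probe sets were named through GEO's platform annotation: 303629 had 1 symbol, 5892 several and 316013 none. Intensities were transformed as log2(intensity + 16), without further normalization. Gene levels needed 3 and exon indices 5 probe sets above the floor. All 16 arrays entered 1 limma fit of 4 group means (limma 3.58.1, R 4.3.3), adjusted over all features, and the code was tested on simulated data. The number of arrays limits precision. Members, lists and tests were chosen with earlier results of these data known. Named were called members, at most 10 in each direction for tissue and 1 probe set per gene, otherwise the 3 smallest p, with a fixed set of channel genes. Alternatives covered pseudocount, floor, quantile normalization, summary, block, sex and left-out arrays. Same-numbered wild type and double knockout brain arrays deviated together (r 0.21 to 0.41 over genes, each best with its own number), a pairing read from these values, while cord numbers did not (r -0.12 to 0).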

Additional observations from a re-analysis of the deposited data

Results flagged for a closer look

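In groups of 4 arrays, 24 of 256 groups of named values had a highest or lowest array far from the other 3 by Dixon's criterion. Chance gives about 1 in 20 for independent normal values. These values share arrays and some exon indices tie at 0, so that rate does not apply to them. Wild type brain array 3, low in telencephalon transcripts, accounted for 7. Its gene levels were 8.24 for Cntnap1 (others 7.4 to 7.54), 9.59 for Epb4.1l3 (9.29 to 9.3), 10.64 for Kcnd2 (10.16 to 10.2), 8.86 for Kcnq3 (8.46 to 8.49) and 7.64 for Kcnf1 (8.14 to 8.24). Its exon indices were -0.41 for Kcnab1 probe set 5344379 (-0.07 to -0.03) and -2.05 for Kcnn1 probe set 5069268 (-2.57 to -2.5).

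The other brain arrays that stood apart were wild type 1 for Kcne2 (8.11, others 8.45 to 8.5) and wild type 2 for Rgs7 (9.08, others 8.97 to 8.99). In double knockout brain, Calm3 was 11.74 on array 3 (11.46 to 11.48), Kcnip3 was 8.45 on array 1 (8.51 to 8.52) and Kcnk10 was 9.65 on array 4 (9.57). Exon indices stood apart there for Kcna1 probe set 5240483 (-0.13 on array 1, others 0), Kcna4 probe set 4892990 (-0.3 on array 3, others 0.05 to 0.11), Kcnh7 probe set 4679317 (-0.1 on array 1, others -0.64 to -0.56) and Kcnk10 probe set 4634248 (-2.76 on array 1, others -2.47 to -2.43).

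In wild type cord, array 1, rich in muscle transcripts, was high for Kcnb2 (8.93, others 8.54 to 8.55) and Kcnip1 (10.03, others 9.46 to 9.51), array 4 was low for Kcnf1 (7.29, others 7.52 to 7.55), and array 3 had an index of -0.87 for Kcnk10 probe set 4634248 (others -1.42 to -1.34). In double knockout cord, array 3 was high for Kcnq3 (8.65, others 8.51 to 8.52) and Lrrc26 (8.63, others 8.18 to 8.25), array 2 had an index of -0.36 for Kcna1 probe set 5240483 (others 0), and array 1 one of -2.19 for Kcnt1 probe set 4768301 (others -1.89 to -1.87).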

How the results depend on the processing

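Over 1829 values of named results under alternative settings, 1617 kept their direction and side of the threshold, 173 lost a call, 14 gained one and 25 changed sign. Members called in cord numbered 13 of 69 tested, 8 of 87 with no floor, 0 without the 4 muscle-rich cord arrays (chosen after seeing the data) and 7 to 15 when each array was left out. Calls over all genes in cord were 820 of 14570, 631 of 19447 with no floor, 100 without the muscle-rich arrays and 420 to 1231 with an array left out. For the difference of changes, 1 member was called with the floor at the 75th percentile, with quantile normalization and with a replicate block, and 0 to 1 with an array left out. Over all genes 0 were called in the main fit, and 11 of 10177, 33 of 14561 and 11 of 14570 in these settings in turn. Without wild type cord array 4, whose removal gave the 1 member call, 18 of all genes were called. Tissue calls numbered 38 of 69 members, 23 of 41 with the 75th percentile floor and 27 to 41 with an array left out. Over all genes they were 8800 of 14570, 6750 of 10177 with that floor and 7487 to 9437 with an array left out. Of the exon index, brain gave 1 call among 296 member probe sets with that floor and 0 to 1 with an array left out. Cord gave 12 with quantile normalization, 1 with only its 8 arrays, 0 without the muscle-rich arrays and 2 to 6 with an array left out. Tissue gave 111 of 655, 59 of 296 with that floor, 71 without the muscle-rich arrays and 74 to 122 with an array left out. Over all probe sets, exon calls in cord were 750, 1728 with quantile normalization, 200 with only the cord arrays and 111 without the muscle-rich ones. Exon calls for tissue over all probe sets were 42539 of 193126, 25837 of 112646 with the 75th percentile floor and 27048 without the muscle-rich arrays. In brain they were 290, and 226 with that floor. Where a cause is not in the number of arrays or probe sets, the cause was not tested.

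The replicate block left brain at 0 calls and gave 12 gene and 4 exon calls in cord, where numbers did not pair the arrays; among the named results it gave the Kcnip3 difference a call and ended those of Kcnb2, Kcna4 probe set 4892990 and Kcnt1 probe set 4768301. Tissue calls were then 39 genes, 38 of them among the 38 without it, and 109 probe sets, 98 of them among the 111. The values that changed sign were not called in either setting, except Kcnab2 (-0.29) and Kcnj10 (-0.14, not called there) for the tissue difference in double knockout arrays. In brain Kcnj6 was 0.01 with no floor. Kcnk2 in brain was -0.09 with no floor, -0.1 with the higher floor, -0.12 by the mean over probe sets, 0 with sex as a term and -0.06 to 0.09 with an array left out. Kcnma1 in brain was 0 without brain arrays 3, and with an array left out it ran from -0.13 to 0.08 and Kcnj10 from -0.2 to 0.03. In cord Kcnj3 was 0.12 with the higher floor, Kcnma1 ran from -0.17 to 0.01 with an array left out, and Kcnq3, Kcnj6 and Kcnma1 were 0.1, 0.03 and 0.18 without the muscle-rich arrays. For tissue, Kcnd2 was 0.18 with quantile normalization, 0.06 without brain arrays 3 and -0.1 to 0.06 with an array left out, and Kcnq3 was -0.09 without the muscle-rich arrays.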
